A study of Homo sapiens with 40 samples.

Results

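RGS4, CLMP, GRIN2A, MATK, A2M and CDH5 are 6 of the 62263 genes in a deposited RNA-seq table of BEAS-2B, a human bronchial epithelial cell line that has been immortalised. They were selected on the measured difference between the 2 lines of the study, in earlier results from the same 40 libraries, so the difference between lines is described here with no p-value, and its calls are given only as what the selection rested on. The rows were found by the Ensembl IDs that map to the 6 symbols, and all 6 genes were among the 16735 that passed the filter on low counts. Each library was either total RNA, called input, or RNA bound to polyribosomes, called polysome, which is RNA engaged by ribosomes after fractionation (Frac-seq). Per the growth protocol, the lines constitutively expressed either shControl or shIGF2BP3, a short hairpin RNA that targets IGF2BP3, grew with serum, were kept overnight in 2% medium, and were harvested 24 h after IL-13 at 100 ng/ml or without stimulation. The 8 groups of 5 libraries were thus unstimulated or IL-13 treated control cells, and unstimulated or IL-13 treated cells labelled knockdown, each as input and as polysome. The sample titles write siC and siIGF2BP3 instead, and where they hold, a line here would be cells given an siRNA. Read by the protocol, each hairpin was represented by 1 line, and the effect of the hairpin and other differences between lines cannot be told apart. The labels do not say whether replicates came from separate cultures, so p-values measure the spread between libraries, which may be technical.

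The 6 genes belong to different pathways. RGS4 encodes a regulator of G protein signalling, which speeds the hydrolysis of GTP by Gi and Gq alpha subunits and so shortens receptor signals, in airway cells among others. CLMP encodes a CXADR-like adhesion protein found at epithelial junctions, and CDH5 encodes VE-cadherin, the adhesion protein of endothelial adherens junctions. GRIN2A encodes the GluN2A subunit of the NMDA glutamate receptor, known chiefly from neurons. MATK encodes a tyrosine kinase related to CSK that phosphorylates the inhibitory tail tyrosine of SRC family kinases and is known from megakaryocytes and brain. A2M encodes alpha-2-macroglobulin, a secreted inhibitor that traps proteases and is cleared through the receptor LRP1. IGF2BP3 is an RNA-binding protein that associates with mRNAs carrying N6-methyladenosine and is known to affect their stability and translation.

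RefSeq promoter windows of 300 bases (build GRCh38.p14, 250 bases before to 50 after an annotated start) were found for 3 of the 6 genes, with 4 starts for RGS4, 1 for GRIN2A and 3 for MATK. CLMP, A2M and CDH5 had no entry. The 3 stretches of 100 bases below are shown because annotated starts of genes that were all higher in the line labelled knockdown lie in differently composed sequence. For RGS4 the stretch shown is that with the TATA box motif, and for MATK that from the window richest in G and C. Each runs 5′ to 3′ on the strand of the gene, from 60 bases before to 40 after the start. Capitals mark the TATA box motif TATAAA in the RGS4 stretch and the GC box motif GGGCGG, or its reverse complement, in the others. The positions are chr1:163069301-163069400 on the plus strand for RGS4, chr16:10182028-10182127 on the minus strand for GRIN2A, and chr19:3786342-3786441 on the minus strand for MATK.
RGS4: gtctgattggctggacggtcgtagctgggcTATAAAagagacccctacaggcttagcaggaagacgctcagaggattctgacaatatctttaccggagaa
GRIN2A: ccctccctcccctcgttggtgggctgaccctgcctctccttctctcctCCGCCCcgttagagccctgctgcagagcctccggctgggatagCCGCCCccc
MATK: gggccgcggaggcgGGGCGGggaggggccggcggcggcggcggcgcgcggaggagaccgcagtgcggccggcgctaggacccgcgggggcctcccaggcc

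Over the full 300 bases, the RGS4 window with the TATA box motif held 47.0% G and C and 8 CpG dinucleotides. The GRIN2A window held 68.3% and 13, and the MATK window of the stretch shown 83.3% and 47. The other MATK windows held 75.0% and 35, and 60.7% and 16. The other RGS4 windows held 44.7%, 40.7% and 50.3%, with 8, 4 and 2 CpG. The median of all 35116 windows in the table was 58.7% G and C with 14 CpG. The MATK window of the stretch shown lay at percentile 99.5 of G and C, and the lowest MATK window at 55.9. TATAAA, searched on both strands, was in 1 of the 4 RGS4 windows and in none of the GRIN2A and MATK windows, against 11.5% of all windows. GGGCGG, searched on both strands, was found 2 times in the GRIN2A window and 2 times in this MATK window, 1 time in another MATK window and in no RGS4 window, against 45.0% of all windows. The AP-1 motif TGANTCA, searched on both strands and not overlapping the others, was in none of the 8 windows, against 7.71% of all windows. The table does not say which start these cells use.

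In the mRNAs, the letters GGACT, the most usual context of N6-methyladenosine, were counted on the transcript strand of the longest protein-coding transcript in GENCODE 29. RGS4 (3311 bases) and MATK (2133 bases) held none. CDH5 held 1 in 4126 bases, CLMP 7 in 5072, A2M 7 in 4844 and GRIN2A 14 in 14450, a length at percentile 99.1 of the 13317 tested genes with such a transcript. Per kilobase this was 0.242 for CDH5, 1.38 for CLMP, 1.45 for A2M and 0.969 for GRIN2A, beside a median of 0.933 over those genes. The 6 genes thus lay on both sides of the median.

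Depth was 26558345 ± 6565279 counts (SD, n = 20) in input and 19066962 ± 11019838 (SD, n = 20) in polysome libraries, the latter from 1816848 to 34082191. Of the 20 polysome libraries, 3 held under 5000000 counts, all labelled knockdown: unstimulated replicates 1 and 5 and IL-13 replicate 5. The input and polysome libraries of unstimulated control replicate 1, called control set 1 here, stood apart. In its input 62 genes and in its polysome library 61 were over 4-fold above all other libraries of that fraction (CPM plus 1). In any of the other 38 libraries there were at most 3. The labels do not say whether the input and polysome libraries of this set came from the same culture. IGF2BP3 RNA, the target of the hairpin, ran from 20.7 to 48.8 CPM in unstimulated control input and from 21.8 to 29.1 CPM in unstimulated input labelled knockdown, and its ranges overlapped in all 4 settings. Its means in control and knockdown-labelled libraries were 35.2 and 24.9 CPM in unstimulated input and 35.4 and 25.8 CPM in IL-13 input. In polysome they were 11.2 and 11.2 CPM unstimulated and 10.6 and 9.15 CPM with IL-13. IGF2BP3 RNA therefore does not check the labels of single libraries, and every direction between lines rests on them. CPM, counts relative to TMM-scaled library size, compares libraries within a gene. The identity of the cells was checked against marker genes in TPM, which is scaled for transcript length: KRT8, KRT18, KRT7, KRT17 and the mesenchymal VIM were all above 95 in the mean of every group, whereas EPCAM, CDH1, KRT5 and TP63 were at most 1.68 in any library.

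Per length, RGS4 was the most abundant of the 6 mRNAs, with a mean of 16.3 TPM over the 40 libraries, at percentile 70.4 of the genes tested. CLMP followed with 3.33 TPM (percentile 44.1), GRIN2A with 1.62 (percentile 33.8) and CDH5 with 1.05 (percentile 28.0). MATK, at 0.264 TPM, and A2M, at 0.0368 TPM, were near the lower end, at percentiles 11.1 and 0.475. Their values rest on few reads, so they are given as counts as well. Fewer cells with a transcript and less of it per cell cannot be told apart in these bulk libraries.

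**Figure D1:**
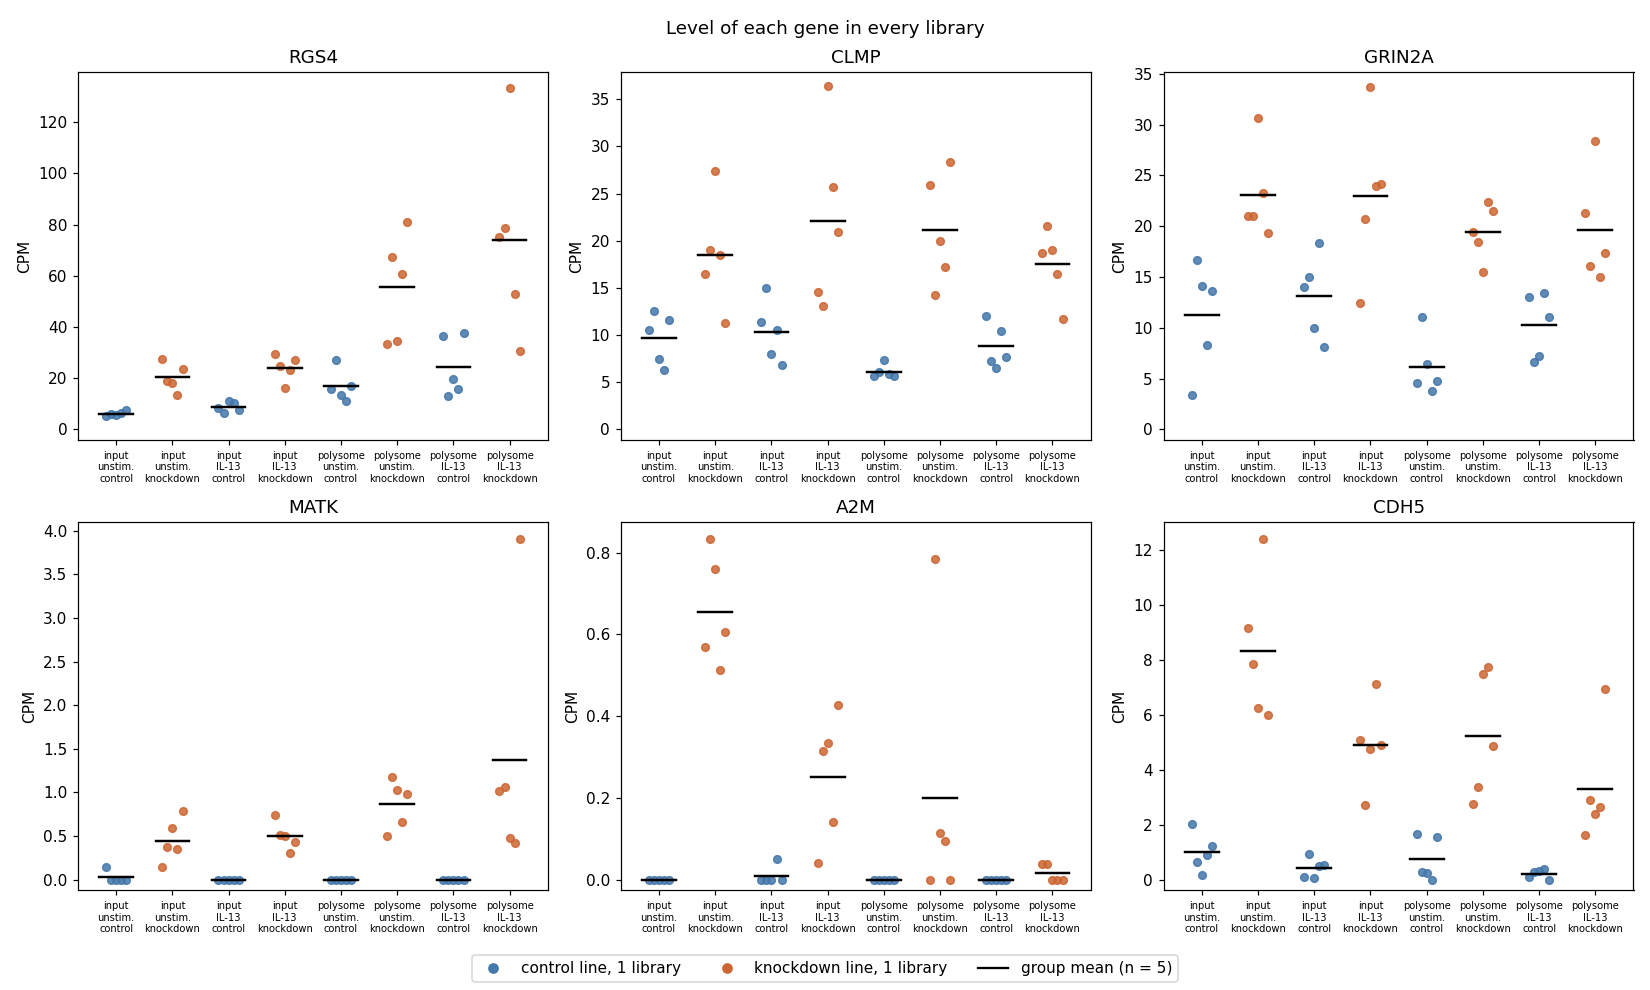
Level of each gene (vertical axis, CPM, linear scale starting near 0) in every library of the 8 groups (horizontal axis: fraction, treatment and line); points are libraries, bars are means of 5. Points of cells labelled knockdown sit mostly above those of the control line within each fraction and treatment, and RGS4 also lies higher in polysome than in input, at a mean of 55.4 against 20.4 CPM in unstimulated cells labelled knockdown.

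RGS4 (ENSG00000117152.14), the G protein regulator, was measured first in input. In unstimulated control input it measured 5.00, 6.01, 5.47, 6.28 and 7.70 CPM, and in unstimulated input labelled knockdown 27.6, 19.0, 18.3, 13.5 and 23.7 CPM. With IL-13 the input values were 8.14, 6.33, 11.2, 10.4 and 7.63 CPM in control and 29.3, 24.9, 16.2, 23.2 and 26.9 CPM in knockdown-labelled libraries. In neither treatment did the input libraries of the lines overlap. The fitted log2 difference, line labelled knockdown minus control, was 1.74 ± 0.319 (SE) unstimulated and 1.46 ± 0.316 with IL-13.

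In polysome RNA, RGS4 was higher than in input in both lines. Unstimulated polysome libraries measured 15.7, 27.1, 13.5, 11.1 and 16.7 CPM in control and 33.4, 67.4, 34.5, 60.8 and 81.1 CPM in knockdown-labelled cells, without overlap. With IL-13 they measured 36.4, 12.9, 19.5, 15.6 and 37.6 CPM in control and 75.0, 78.6, 133, 52.9 and 30.8 CPM in knockdown-labelled cells. Here the lines overlapped through the last of these, knockdown replicate 5, which held 2302952 counts in all and 71 of RGS4. The log2 differences were 1.72 ± 0.320 and 1.62 ± 0.316 (SE).

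Ordered by group mean, RGS4 ran from 6.09 CPM ± 1.03 (SD, n = 5) in unstimulated control input to 74.1 CPM ± 38.2 (SD, n = 5) in IL-13 polysome labelled knockdown. Control polysome with IL-13, at 24.4 CPM ± 11.7 (SD, n = 5), lay above both knockdown-labelled input groups, at 20.4 and 24.1 CPM. Each group overlapped the next in this order.

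CLMP (ENSG00000166250.12), the junctional adhesion protein, overlapped between lines in 3 of the 4 settings. Input measured 10.5, 12.6, 7.46, 6.28 and 11.6 CPM in unstimulated control and 16.5, 19.1, 27.4, 18.5 and 11.3 CPM in unstimulated knockdown-labelled libraries. With IL-13, input measured 11.4, 15.0, 8.01, 10.5 and 6.79 CPM in control and 14.6, 13.0, 36.4, 25.7 and 20.9 CPM in knockdown-labelled libraries. In both treatments the lowest knockdown-labelled input library lay inside the control range.

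Unstimulated polysome RNA separated the lines most for CLMP. It measured 5.64, 6.09, 7.34, 5.86 and 5.69 CPM in control and 25.9, 14.3, 20.0, 17.2 and 28.4 CPM in knockdown-labelled libraries, with no overlap. With IL-13, polysome libraries measured 12.0, 7.27, 6.54, 10.5 and 7.71 CPM in control and 18.7, 21.6, 19.0, 16.5 and 11.7 CPM in knockdown-labelled cells, and the last, again replicate 5, lay just under the highest control library. The log2 differences were 0.94 ± 0.266 and 1.10 ± 0.267 (SE) in input, and 1.77 ± 0.279 and 1.01 ± 0.270 in polysome, each pair without and with IL-13. All 4 control groups had lower means than all 4 knockdown-labelled groups, from 6.12 to 10.3 CPM against 17.5 to 22.1 CPM, although neighbours in this order overlapped.

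GRIN2A (ENSG00000183454.18), the NMDA receptor subunit, overlapped between lines in IL-13 input alone of the 4 settings. Input measured 3.36, 16.7, 14.1, 8.32 and 13.6 CPM in unstimulated control and 21.0, 21.0, 30.7, 23.3 and 19.3 CPM in unstimulated knockdown-labelled libraries. With IL-13, input measured 14.0, 15.0, 9.93, 18.4 and 8.15 CPM in control and 12.4, 20.7, 33.7, 24.0 and 24.1 CPM in knockdown-labelled libraries. The lowest unstimulated control value was from control set 1, and without this set the unstimulated log2 difference was 0.80 in place of 1.04 ± 0.315 (SE).

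Polysome libraries of GRIN2A measured 4.59, 11.1, 6.40, 3.74 and 4.79 CPM in unstimulated control and 19.5, 18.5, 15.5, 22.4 and 21.5 CPM in unstimulated knockdown-labelled cells. With IL-13 they measured 13.0, 6.61, 7.21, 13.5 and 11.1 CPM in control and 21.3, 16.1, 28.4, 15.0 and 17.3 CPM in knockdown-labelled cells. Both pairs of groups were fully separated. The log2 difference was 0.81 ± 0.314 (SE) in IL-13 input, 1.67 ± 0.329 in unstimulated polysome and 0.94 ± 0.318 in IL-13 polysome. As for CLMP, all 4 control means (6.12 to 13.1 CPM) lay below all 4 knockdown-labelled means (19.5 to 23.1 CPM), and neighbours in the order overlapped.

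CDH5 (ENSG00000179776.19), VE-cadherin, was the only one of the 6 genes whose libraries separated the lines in all 4 settings. Input measured 2.03, 0.628, 0.186, 0.902 and 1.22 CPM in unstimulated control and 9.15, 7.86, 6.24, 12.4 and 6.00 CPM in unstimulated knockdown-labelled libraries. With IL-13, input measured 0.0871, 0.931, 0.0712, 0.506 and 0.526 CPM in control and 5.10, 2.71, 4.75, 7.12 and 4.92 CPM in knockdown-labelled libraries. The fitted log2 differences were 3.07 ± 0.665 and 3.50 ± 0.689 (SE).

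In polysome RNA, CDH5 measured 1.67, 0.273, 0.262, 0 and 1.56 CPM in unstimulated control and 2.74, 3.37, 7.48, 7.74 and 4.89 CPM in unstimulated knockdown-labelled libraries. With IL-13 it measured 0.108, 0.264, 0.300, 0.382 and 0 CPM in control and 1.61, 2.89, 2.39, 2.64 and 6.93 CPM in knockdown-labelled libraries. The log2 differences were 2.92 ± 0.700 and 3.64 ± 0.737 (SE). The unstimulated polysome value was 3.52 without control set 1 and 2.12 with an offset for transcript length, which moved the IL-13 polysome value to 2.78. Among 12 other endothelial markers, ERG was listed at 0 in all 40 libraries. PECAM1, KDR, TIE1, SOX17 and EMCN were at most 0.0936 TPM in any library. The 3 that passed the filter reached higher: CLDN5 up to 1.61 TPM, CD34 up to 0.648 TPM and EGFL7 up to 60.5 TPM. The summed level of the 12 markers ran from 18.3 to 26.2 TPM in unstimulated control input. In unstimulated knockdown-labelled input it ran from 14.2 to 23.5 TPM, and most of both sums was from EGFL7. None of the 3 markers that passed the filter was called between the lines in any setting, where 0% to 0.0896% of all genes were. With so few genes called, this does not set these markers apart from other genes.

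MATK (ENSG00000007264.15), the CSK-related kinase, was listed at 0 in 19 of 20 control libraries. The exception was unstimulated input replicate 1, with 4 counts (0.143 CPM), just above the lowest knockdown-labelled library of that setting. The knockdown-labelled libraries held 3, 8, 18, 13 and 13 counts in unstimulated input and 18, 13, 15, 11 and 6 in IL-13 input, which is 0.142 to 0.788 and 0.308 to 0.747 CPM. In polysome they held 2, 21, 18, 14 and 2 counts without IL-13 and 27, 27, 17, 13 and 9 with it, 0.499 to 1.18 and 0.418 to 3.90 CPM. All 20 libraries labelled knockdown thus held reads of MATK.

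Against a floor of 3 counts in each control library, MATK was at least 4.61-fold higher in knockdown-labelled IL-13 input, 3.58-fold in unstimulated polysome and 7.09-fold in IL-13 polysome. In unstimulated input, where 4 control counts were present in 1 library, the means were 0.0286 CPM in control, under the floor of 0.0972 CPM, and 0.449 CPM in knockdown-labelled libraries, and no fold is given. The highest value, 3.90 CPM, was from IL-13 polysome knockdown replicate 5, of low depth, and without it the group mean was 0.745 CPM in place of 1.38 CPM and the bound of 7.09-fold was 3.83-fold. Of the megakaryocyte markers, PF4 and GP9 were listed at 0 in every library, and the summed level of the 6 markers of that list was at most 1.82 TPM in any library. The 1 marker that passed the filter, ITGA2B, itself reached 1.82 TPM. Its group means ran from 0.141 to 0.938 TPM, beside 0 to 0.877 TPM for MATK. It was not called between the lines in any setting, where 0% to 0.0896% of all genes were.

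A2M (ENSG00000175899.15), the protease inhibitor, was found mainly in input labelled knockdown. It held 12, 18, 23, 19 and 10 counts there without IL-13 (0.569, 0.833, 0.759, 0.513 and 0.606 CPM) and 1, 8, 10, 5 and 6 counts with IL-13 (0.0415, 0.314, 0.334, 0.140 and 0.428 CPM). In control input it was listed at 0 in 9 of 10 libraries, with 2 counts in IL-13 replicate 4. In polysome libraries it was at 0 in all 10 control libraries and held 0, 14, 2, 2 and 0 counts in unstimulated and 1, 1, 0, 0 and 0 in IL-13 knockdown-labelled libraries.

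A2M was at least 6.75-fold higher in knockdown-labelled than in control unstimulated input. With IL-13 the ratio was 16.8, with an exact Poisson interval from 4.26 to 145 that covers counting error only. No fold is given in polysome RNA, where both groups lay at or under the floor on average, and the unstimulated knockdown-labelled mean of 0.199 CPM was 0.0520 CPM without replicate 2. Within input labelled knockdown the IL-13 libraries all lay under the unstimulated ones, with means of 0.252 and 0.656 CPM. This was the only step in the order of the group means, for any of the 6 genes, at which neighbouring groups did not overlap.

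The share of all genes called between the lines gives the background to these separations. A call is an adjusted p under 0.05 in the quasi-likelihood test of edgeR over all 16735 genes. In unstimulated input 0.012% of genes were called, among them RGS4 and A2M. In IL-13 input 0% were called (55 genes with the DESeq2 Wald test). There 502 genes had an unadjusted p under 0.05 in edgeR, where chance alone would give about 837. In unstimulated polysome 0.0299% were called, among them RGS4, CLMP, GRIN2A and MATK, and in IL-13 polysome 0.0896%, among them RGS4, MATK and CDH5. The genes were chosen from these contrasts, so the counts describe the selection. Libraries labelled knockdown lay entirely above control for 4, 3, 5 and 3 of the 6 genes in these settings, in the same order, beside 0.854%, 0.980%, 0.329% and 0.550% of all genes tested.

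Effects averaged with equal weight on both lines do not use the difference the genes were chosen for, and these were tested. For MATK and A2M a control group had no reads, so the averaged log scale gave no value and 4 genes were tested. Polysome RNA was compared with input first. RGS4 was 1.50 ± 0.158 (SE) higher on the log2 scale in polysome RNA (adjusted p = 1.0e-10 in edgeR). Polysome libraries lay above input libraries without overlap in each of the 4 combinations of line and treatment, with log2 differences of 1.46 and 1.47 in control and 1.44 and 1.63 in knockdown-labelled cells, without and with IL-13. The median of all genes tested was -0.24 in this comparison and 65.1% of genes were called, 4385 of them higher. Of the 4 genes tested here 2 were called. Relative to this median RGS4 was higher by 1.74, and 419 of the 16735 genes had a larger shift.

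The other 3 genes did not share the rise of RGS4. GRIN2A was lower in polysome RNA by a log2 change of -0.43 ± 0.158 (SE, adjusted p = 0.0175 in edgeR), which is -0.19 relative to the median of all genes. Its call was lost without unstimulated polysome knockdown replicate 5 (-0.30, adjusted p = 0.103) and without all 3 libraries under 5000000 counts (-0.31, adjusted p = 0.111). CLMP changed by -0.26 ± 0.134 (adjusted p = 0.0835) and CDH5 by -0.66 ± 0.331 (adjusted p = 0.0780), neither past the threshold. When each of the 40 libraries was left out in turn, CLMP passed it in 2 fits and CDH5 in 5: CLMP without unstimulated input knockdown replicate 5 (-0.30) or IL-13 input knockdown replicate 2 (-0.30), and CDH5 without control replicate 3 of either input group (-0.73 in both), unstimulated polysome control replicate 1 (-0.81) or 5 (-0.78), or IL-13 polysome knockdown replicate 5 (-0.75).

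IL-13 was compared with no stimulation next. None of the 4 genes was called in edgeR, in input or in polysome, where 0.149% and 0.209% of all genes were. At an unadjusted p under 0.05 in edgeR there was 1 of the 4 in input and there were 2 in polysome. Beside them stood 328 and 884 of all 16735 genes, where chance alone would give about 837. None of the 4 was called with the DESeq2 Wald test. RGS4 changed by 0.38 ± 0.220 (SE, unadjusted p = 0.0912, adjusted 1.00 in edgeR) in input and by 0.48 ± 0.220 (unadjusted p = 0.0342, adjusted 0.852) in polysome. CDH5 changed by -0.98 ± 0.448 (unadjusted p = 0.0359, adjusted 1.00 in edgeR) in input and by -1.15 ± 0.491 (unadjusted p = 0.0247, adjusted 0.778) in polysome, with a lower mean under IL-13 in each of the 4 combinations of line and fraction and overlapping libraries in all of them. CLMP changed by 0.17 ± 0.187 and 0.14 ± 0.191, and GRIN2A by 0.11 ± 0.220 and 0.38 ± 0.226, in input and polysome. The GRIN2A value in input rested on 1 library, as it was -0.0073 without unstimulated control input replicate 1.

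**Figure D2:**
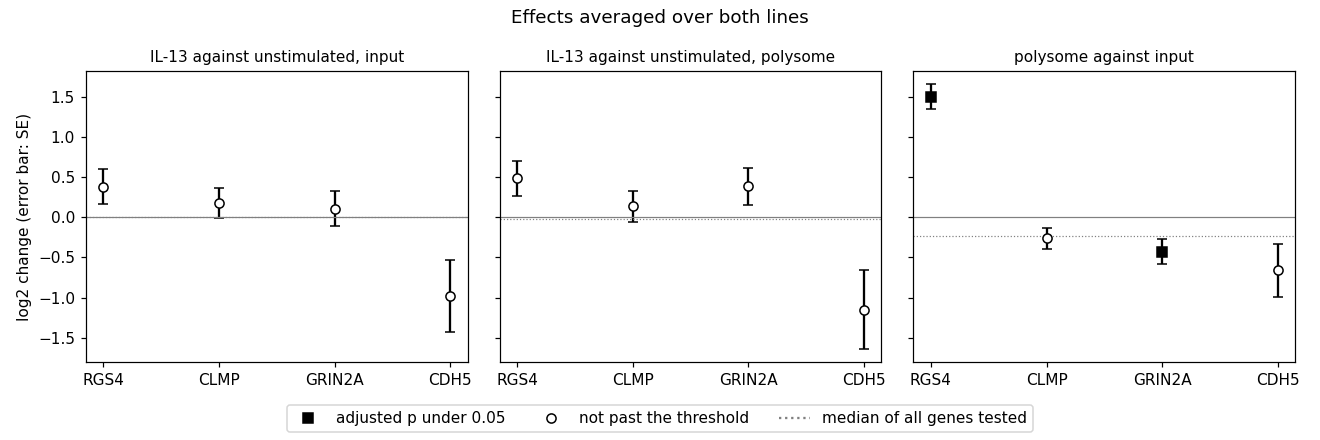
Log2 change (vertical axis, error bars SE from the fit on 40 libraries) of RGS4, CLMP, GRIN2A and CDH5 averaged over both lines, for IL-13 in input, IL-13 in polysome and polysome against input; filled squares passed an adjusted p of 0.05 and the dotted line is the median of all genes tested. RGS4 stands at 1.50 in polysome against input, where the other 3 genes lie between -0.66 and -0.26.

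The families of the 6 genes were examined with the genes themselves left out. None of the 46 relatives that passed the filter was called between the lines or with IL-13 in any of the 6 comparisons, in which 0% to 0.209% of all genes were. The counts in polysome against input that follow stand beside 65.1% of all 16735 genes called there, 4385 higher and 6515 lower. Of 11 RGS family genes, the most abundant per length were RGS10 (45.3 TPM), RGS3 (36.2) and RGS19 (21.2), each above RGS4 in the mean over the 40 libraries. In IL-13 polysome labelled knockdown RGS4 was above all 3, with a mean of 40.1 TPM against 37.2, 32.3 and 18.1 TPM. In polysome against input RGS2 rose (0.93 ± 0.295, SE, adjusted p = 0.00569 in edgeR), and RGS12 (-0.97 ± 0.0729), RGS20 (-0.74 ± 0.207), RGS3 (-0.41 ± 0.0826) and RGS10 (-0.35 ± 0.0849) fell. The median of the 11 was -0.26, near the -0.24 of all genes.

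Among 6 CTX and JAM adhesion proteins, the relatives of CLMP, 3 rose in polysome, as did 4385 of all 16735 genes, and none fell: F11R (29.2 TPM), a tight junction protein, by 0.71 ± 0.153 (SE), ESAM (0.630 TPM) by 1.12 ± 0.325 and CXADR (4.08 TPM), the adenovirus and coxsackievirus receptor, by 0.47 ± 0.172. Of 3 glutamate receptor genes other than GRIN2A none was called in polysome against input in edgeR, and all were scarce, GRIN2D at 0.597, GRIK4 at 0.0955 and GRIN3B at 0.0608 TPM. GRIN1, which encodes the obligatory NMDA receptor subunit, did not pass the filter. Neuronal markers RBFOX3 and NEFL were listed at 0 in all libraries. The summed level of the 8 markers of that list was at most 2.25 TPM in any library. Of this list SYP, up to 2.02 TPM, and MAP2 passed the filter. Mean MAP2 in control and knockdown-labelled cells was 0.206 and 0.498 TPM in unstimulated input. In unstimulated polysome it was 0.154 and 0.282 TPM. SYP went the other way, at 0.97 and 0.505 TPM in that input and 1.15 and 0.568 TPM in that polysome. The direction of each was the same with IL-13. Neither marker was called between lines in any setting, where 0% to 0.0896% of all genes were.

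The SRC family list, related to MATK, held 7 further genes, of which CSK (70.5 TPM), the main kinase of the SRC tail, FYN (37.1 TPM) and LYN (4.52 TPM) rose in polysome by 0.95 ± 0.0791, 0.93 ± 0.110 and 0.76 ± 0.147 (SE), and none fell. SRC itself (26.7 TPM) changed by 0.07 ± 0.142 (adjusted p = 0.667 in edgeR). Per length CSK was thus far more abundant than MATK at 0.264 TPM.

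All 7 relatives or receptor genes of A2M were called in polysome against input, where 65.1% of all genes were. The receptor LRP1 (7.16 TPM) fell, with a log2 change of -3.80 ± 0.281 (SE), as did CD109, with -2.42 ± 0.150, and the complement genes C3 (-4.24), C4A (-3.53), C4B (-3.23) and C5 (-1.10). C4A and C4B are near-identical copies whose reads may be split uncertainly. LRPAP1 (5.19 TPM), the chaperone of LRP1, rose by 1.13 ± 0.182 (SE).

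Of 12 cadherin and catenin genes, 9 fell and 1 rose in polysome, with a median of -1.38, beside 6515 lower and 4385 higher among all 16735 genes. CTNNA1 (115 TPM), CTNNB1 (56.9 TPM), CTNND1 (30.7 TPM) and JUP (30.2 TPM), the cytoplasmic partners of cadherins, fell, with log2 changes of -2.14, -2.19, -2.23 and -1.99. P-cadherin, CDH3, rose by 0.44 ± 0.132 (SE, adjusted p = 0.00367 in edgeR). N-cadherin, CDH2 (16.0 TPM), was more abundant per length than CDH5 at 1.05 TPM, and fell, with a log2 change of -1.66.

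The chromosomal neighbours of the 6 genes were then compared between lines, taking the 3 nearest tested genes on each side. None of these 36 neighbours was called between lines in edgeR in any of the 4 settings, in which 0% to 0.0896% of all genes were. Their median log2 differences were 0.07, 0.03, -0.04 and 0.06 in unstimulated input, IL-13 input, unstimulated polysome and IL-13 polysome. RGS5, the RGS family gene next to RGS4 on chromosome 1, measured 0.999 and 1.28 CPM in control and knockdown-labelled unstimulated input, 1.13 and 1.20 in IL-13 input, 1.63 and 1.96 in unstimulated polysome, and 1.06 and 1.67 in IL-13 polysome. As log2 ratios of group means plus 1 CPM, the 36 ran from -0.55 to 0.69, -0.26 to 0.97, -0.56 to 0.71 and -1.03 to 0.84 in the same order of settings. On this scale and in this order BEAN1, near CDH5, stood at 0.69, 0.97, -0.12 and 0.26. GRAMD1B, near CLMP, stood at 0.42, 0.81, -0.22 and 0.48, and CLMP itself at 0.87, 1.03, 1.64 and 0.91.

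On chromosome 12, the antisense gene A2M-AS1 measured 0.273 and 0.289 CPM in control and knockdown-labelled unstimulated input, 0.304 and 0.530 in IL-13 input, 0.169 and 0.249 in unstimulated polysome, and 0.0898 and 0.672 in IL-13 polysome. LINC00987, the second tested gene on the other side of A2M and singled out after its values were seen, measured 0.0214 and 0.476 CPM in unstimulated control and knockdown-labelled input, and 0 and 0.653 CPM with IL-13. Its adjusted p was 0.305 and 0.0749 in edgeR. The labels describe strand-specific libraries, but how strand entered the counting is not given in the sources used here.

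**Figure D3:**
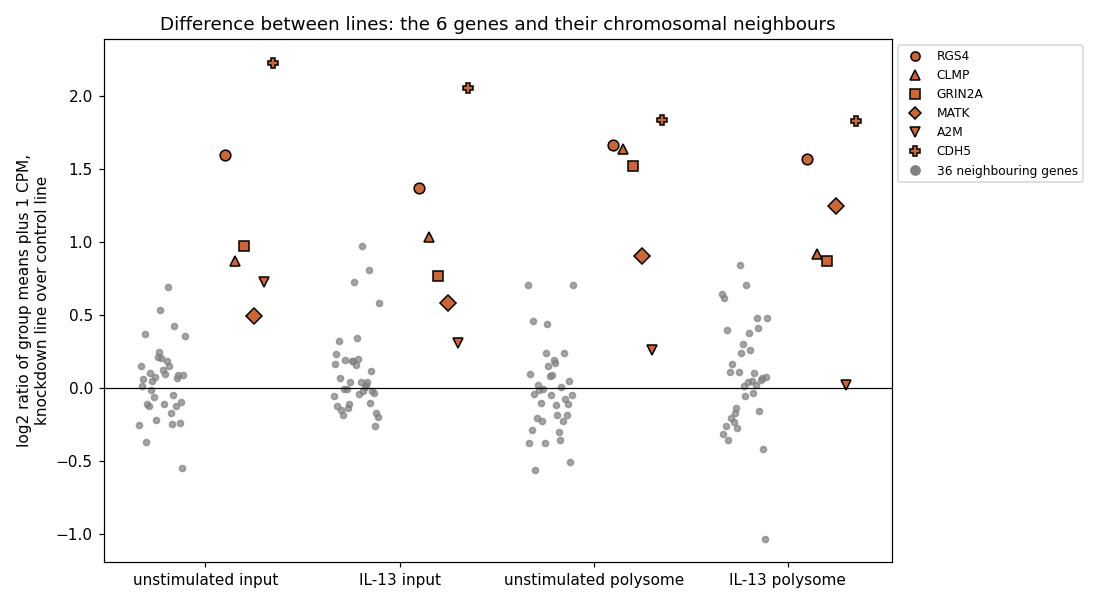
Difference between lines (vertical axis: log2 ratio of group means after adding 1 CPM, line labelled knockdown over control) for the 6 genes (marked symbols) and their 36 chromosomal neighbours (grey points) in 4 settings (horizontal axis). The 6 genes were chosen on this difference, so a level above the neighbour medians (between -0.04 and 0.06) follows from the selection. CDH5, the highest of the 6, lay between 1.83 and 2.23. The ranges overlapped: in IL-13 input the neighbours BEAN1 (0.97) and GRAMD1B (0.81) lay above GRIN2A (0.77) and MATK (0.58). A2M stood at 0.02 in IL-13 polysome.

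The genes most alike in pattern were found from the 8 group means of log2(CPM + 1), each gene centred on its own mean, among 14079 other genes whose highest group mean reached 1 CPM. Likeness is the root mean square difference over the 8 means, and these genes share the same libraries. CLMP and GRIN2A had the same nearest gene, PRLR, the prolactin receptor, at 0.125 and 0.138 log2 units, and the same second gene, ENSG00000268173. PRLR measured 3.08 and 6.31 CPM in unstimulated control and knockdown-labelled input and 2.12 and 6.68 CPM in unstimulated polysome. The third genes were DCLK1, a microtubule-associated kinase, for CLMP (0.193) and IL7R, the interleukin-7 receptor, for GRIN2A (0.222).

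RGS4 was most alike to APBB3 (0.382), PRDX3 (0.401), a mitochondrial peroxidase, and DHRS3 (0.414), a retinal reductase, all higher in polysome than in input and in the line labelled knockdown. PRDX3 measured 129 and 217 CPM in unstimulated control and knockdown-labelled input and 384 and 690 CPM in polysome. CDH5 was most alike to the metalloproteases MMP2 (0.317) and ADAM12 (0.338) and to STEAP3 (0.432). MMP2 measured 19.6 and 52.4 CPM in unstimulated control and knockdown-labelled input, and 12.4 and 37.4 CPM with IL-13.

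MATK was most alike to CAMK4 (0.0961), KLF9 (0.122) and UBE2V1 (0.127), and A2M to BTN2A3P (0.0916), CTIF (0.102) and FGF1 (0.113). Both genes vary little on this scale, by 0.413 and 0.241 around their own means, so small differences place many genes near them. With 0.1 CPM added in place of 1, 2 of the 3 genes were shared for RGS4 and CLMP, 1 for GRIN2A and 0 for MATK, A2M and CDH5.

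**Figure D4:**
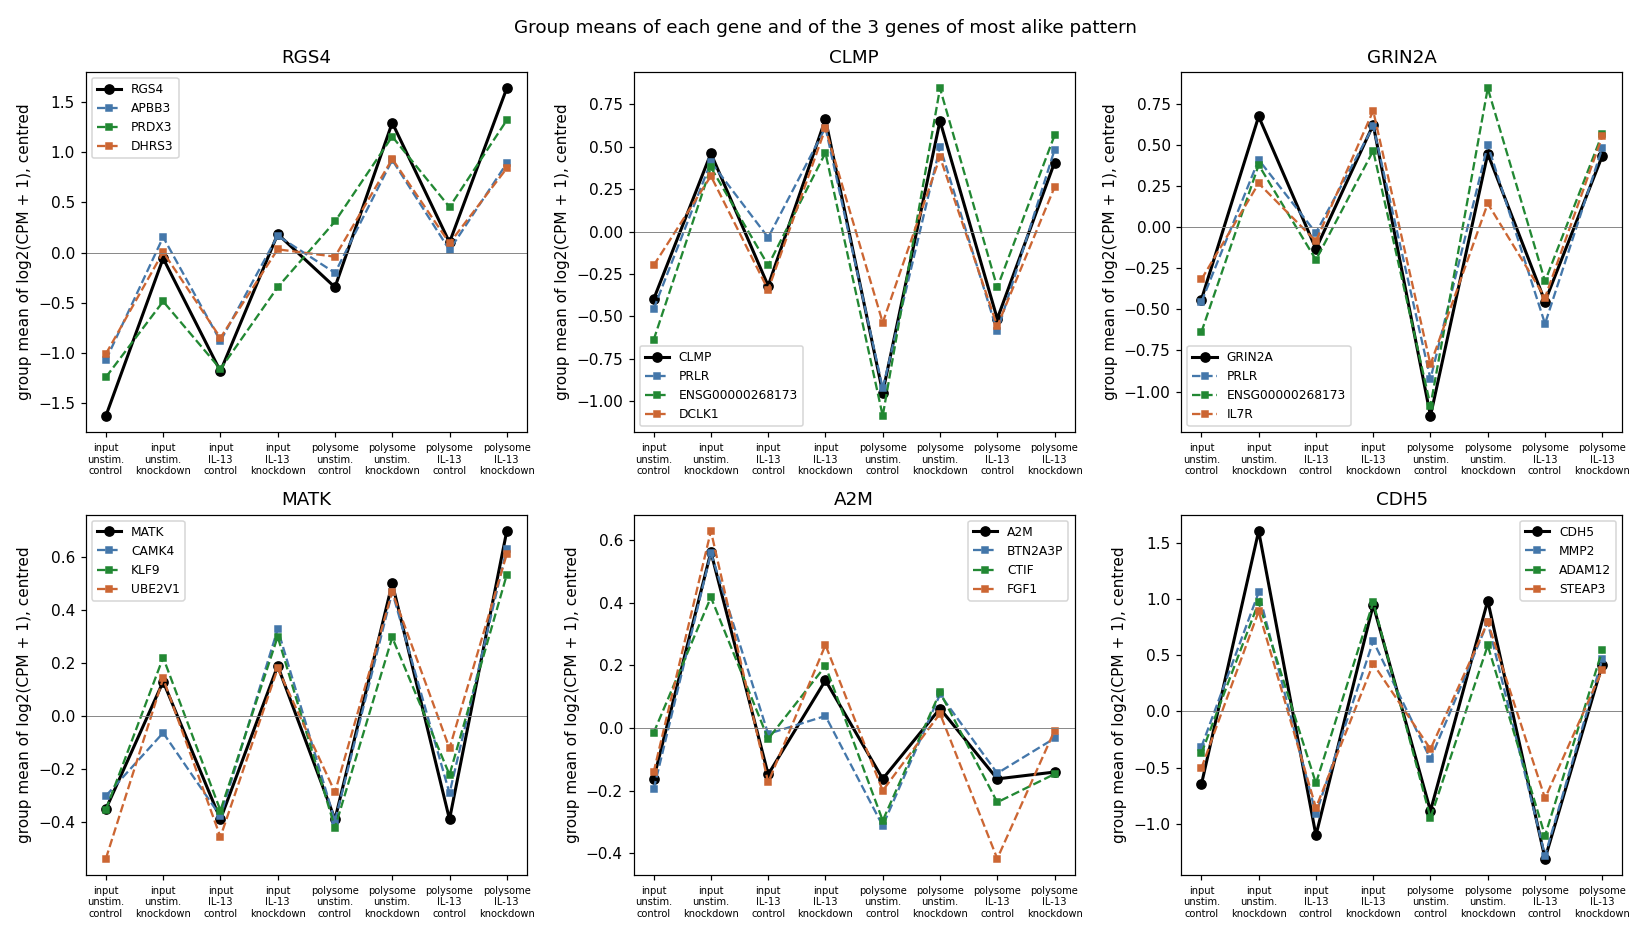
Group means of log2(CPM + 1), centred on each gene (vertical axis), over the 8 groups (horizontal axis) for each of the 6 genes (black) and the 3 genes of most alike pattern (dashed). PRLR follows both CLMP and GRIN2A, at root mean square differences of 0.125 and 0.138.

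The transcript length that the deposited values imply for a gene, relative to its mean, was compared as a sign of isoform use. For CLMP it stayed between 0.996 and 1.02 in every library. For RGS4 it ran from 0.782 to 1.47 in unstimulated control input and from 0.870 to 1.24 in unstimulated knockdown-labelled input, and for GRIN2A from 0.916 to 1.25 and from 0.774 to 1.17. The lines overlapped for both genes in all 4 settings. For CDH5 they did not overlap in polysome RNA, at 0.550 to 0.767 in control and 0.948 to 1.29 in knockdown-labelled unstimulated libraries, and at 0.515 to 1.00 and 1.24 to 1.34 with IL-13. These control values of CDH5 rest on at most 16 counts per library, and 1 control polysome library of each treatment had none. With the minimum of 20 counts set for this measure, 0 control polysome libraries remain, so no conclusion is drawn from this separation. In input libraries past that minimum the lines overlapped. CDH5 there ran from 1.04 to 1.35 in control and from 1.19 to 1.24 in knockdown-labelled unstimulated libraries, and from 1.12 to 1.23 and 0.996 to 1.17 with IL-13.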

How the data were processed

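RNA was measured in 40 libraries in 8 groups of 5. The deposited table gave estimated counts and TPM per gene and library. Per the submitters' processing notes Trimmomatic, MultiQC, Salmon and DESeq2 were used, without stated roles here. Genome build and annotation are not given in the sources used here. TPM was scaled by the authors for length and depth, and summed to between 823335 and 858654 per library. Of the gene IDs, 62246 matched a symbol and 17 did not.

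Estimated counts, as deposited, were rounded to whole numbers, although the design had assumed whole counts. They were filtered with filterByExpr, which kept at least 99.91% of the counts of each library, scaled with TMM, and fitted with the quasi-likelihood model of edgeR 4.0.16 in R 4.3.3, with 1 mean per group and 32 residual degrees of freedom. Two-sided p-values were adjusted over the 16735 genes with the Benjamini-Hochberg method. The procedure was tested on simulated data. A floor is 3 counts per library, averaged as CPM over the group, and covers only counting error, because the reads carry no molecular identifiers.

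The 6 genes and the lists were chosen with earlier results of these data known. Named are the 6 genes, IGF2BP3, the 3 most alike genes of each, and from each family list the 3 of highest mean TPM and genes called, at most 4 per list and comparison by smallest p, beyond which names were chosen after their values were seen. Marker genes and neighbours named in the text were also chosen after their values were seen. Alternatives were DESeq2 1.42.0 size factors and Wald test, no filter, a length offset, replicate blocks, 1 fraction alone, 0.1 CPM added, and leaving out control set 1, libraries under 5000000 counts, or each library in turn.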

Additional observations from a re-analysis of the deposited data

Results flagged for a closer look

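In 56 groups of 5 libraries, from the 6 genes and IGF2BP3, 8 single values lay far from the other 4 libraries. For normally spread values chance gives about 2.8. That number does not hold for MATK and A2M groups at 0 throughout, which cannot be flagged, or with 1 library above 0, which always are. In polysome RNA, CLMP measured 7.34 CPM in unstimulated control replicate 3, against 5.64 to 6.09 in the others. In IL-13 knockdown-labelled replicate 5, a library of low depth, MATK measured 3.90 CPM (9 counts, others 0.418 to 1.07) and CDH5 6.93 CPM (16 counts, others 1.61 to 2.89). A2M measured 0.786 CPM (14 counts) in unstimulated knockdown-labelled polysome replicate 2, against at most 0.114. IGF2BP3 measured 26.4 CPM (54 counts) in unstimulated knockdown-labelled polysome replicate 5, against 5.35 to 9.09, and 4.23 CPM in IL-13 control polysome replicate 2, against 11.2 to 12.8. In input, the only control reads of MATK and A2M were 0.143 CPM (4 counts) in unstimulated control replicate 1 and 0.0506 CPM (2 counts) in IL-13 control replicate 4.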

How the results depend on the processing

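Of 36 results on the 6 genes, 12 had a test and 24 were differences or levels between lines with no test. Under every alternative 32 kept their direction and, where tested, their side of the threshold, or, for the 8 levels, moved by less than 1 SD. These include all 24 without a test. Their genes were chosen on the difference between lines in these same libraries, so their stability is expected from the selection and is no support. The exceptions were all among the 12: the GRIN2A response to IL-13 in input, reversed to -0.0071 without control set 1 (-0.0073 to 0.20 over fits without 1 library), and polysome against input for GRIN2A (-0.31 without libraries under 5000000 counts, -0.51 to -0.30 over fits without 1 library), CLMP (-0.30 to -0.16) and CDH5 (-0.81 to -0.54 over those fits, and -0.32 with the length offset). The cause was not tested.

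Counts of called genes moved more. For IL-13 they were 38 in input and 21 in polysome with only the 20 libraries of the fraction, and 51 and 82 with the DESeq2 Wald test, against 25 and 35. Between lines, in unstimulated input, IL-13 input, unstimulated polysome and IL-13 polysome, 2, 0, 5 and 15 became 28, 55, 89 and 144 with that test, and 18, 23, 1 and 0 with 1 fraction alone. DESeq2 size factors gave 5 and 8 in the unstimulated settings, and no filter 11, 19 and 13 in the first 3. Without control set 1 there were 7 in unstimulated input, 8 in IL-13 input and 28 in IL-13 polysome, without libraries under 5000000 counts 7 in unstimulated input and 30 in IL-13 polysome, and with the length offset 2 in IL-13 input and 2 in unstimulated polysome. Leaving out 1 library gave 0 to 5, 0 to 23, 1 to 21 and 2 to 16. Where the count in unstimulated input was 0, RGS4 and A2M were not called there.

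Replicate numbers were not taken to pair the samples, since deviations did not correlate above 0.1 in every pair: they did in 9 of 20 pairs of input and polysome (up to 0.62), 5 of 20 across treatments and 7 of 20 across lines. This rule cannot exclude pairing, and the main fit takes the 40 libraries as independent. With the number as a replicate block, 0 genes were called in unstimulated input and 3 in unstimulated polysome. RGS4 in polysome against input was 1.49 with this block. It was 1.42 with a block that joined input and polysome of the same line, treatment and number. The GRIN2A call in this comparison was kept with both blocks. MATK and A2M rest on at most 27 counts per library, so a difference of a few counts is not detectable there.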
